A study of Homo sapiens with 6 samples.

Results

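The AMP-activated protein kinase (AMPK) genes described here were the 6 subunit genes PRKAA1, PRKAA2, PRKAB1, PRKAB2, PRKAG1 and PRKAG2, and 4 genes of the kinases that act upstream of it, STK11, CAB39, STRADA and CAMKK2. They were chosen by symbol, by a rule that holds no measured value but was written with earlier results of these data known, and all 10 were found among the 58395 genes listed. The RNA came from HCT116, a line of human colorectal cancer cells of colon origin, in 2 groups of 3 libraries labelled as biological replicates. The shControl cells carried a non-target short hairpin RNA and the shSTBD1 cells a hairpin against STBD1, a glycogen-binding protein proposed to act as an adaptor for the autophagy of glycogen. According to the study's methods, hairpins were delivered by lentivirus and the cells were then kept in puromycin or G418, so both groups had passed through infection and selection. Each group carried a single hairpin sequence, and the sources used here do not say whether replicates came from separate infections, so p-values measured only the spread between these libraries. The question asked of these genes was whether the RNA of the energy-sensing kinase and its activators differed when STBD1 was depleted.

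AMPK is a heterotrimer of a catalytic alpha subunit, a scaffolding beta subunit and a gamma subunit that binds adenine nucleotides. When AMP or ADP rises, the kinase is activated through the gamma subunit and through phosphorylation of the activation loop of alpha, and it then restrains anabolic pathways such as lipid synthesis and favours catabolism and autophagy. The loop is phosphorylated by LKB1, the product of STK11, which works in a complex with the pseudokinase STRAD and the scaffold MO25 (CAB39), or by CaMKK2 in response to calcium. The beta subunits hold a carbohydrate-binding module that binds glycogen, a property shared with STBD1. The libraries measured RNA, and neither phosphorylation nor kinase activity was measured in them.

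Each library held between 17689097 and 21668274 expected counts. The targeted gene checked the labels: STBD1 lay at 16.2, 15.7 and 14.4 CPM (counts scaled to a common library size) in the shControl libraries and at 11.6, 9.06 and 9.18 CPM in the shSTBD1 libraries, which did not overlap. It fell by 35.8%, with a log2 fold change of shSTBD1 over shControl of -0.64 (SE 0.098, adjusted p = 0.00029, edgeR's quasi-likelihood test). Of 7 markers of colon epithelium, 6 were above 1 TPM (the authors' level per transcript length), with EPCAM between 169 and 183 TPM, while VIL1 reached only 0.21 TPM. PTPRC, which marks leukocytes, and CD3E, which marks T cells, were listed at 0 in every library, and of the other leukocyte markers CD68 lay at 6.50 to 7.83 TPM in shControl and 10.79 to 11.99 TPM in shSTBD1. Of 4 fibroblast markers only COL1A1 was above 1 TPM, at 14.6 to 19.5 TPM in shControl and 16.9 to 20.6 TPM in shSTBD1. Of 3 endothelial markers 0 were above 1 TPM. The summed epithelial markers were 2966 to 2991 TPM in shControl and 3355 to 3489 TPM in shSTBD1, and their part in the results was not tested.

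All 10 AMPK genes passed the filter on low counts, and 1 of them, PRKAA1, was called at an adjusted p under 0.05, higher in shSTBD1. That is 10.0% of the members, beside 15.8% of the 15566 genes tested in the same comparison. Calls in the higher direction made up 8.22% of all tested genes and calls in the lower direction 7.54%, and none of the 10 was called lower by edgeR. At an unadjusted p under 0.05 there were 3, PRKAA1 higher and PRKAB1 and CAMKK2 lower. DESeq2 also called only PRKAA1, with 2 of the members at an unadjusted p under 0.05, beside 10.9% of all tested genes called. The log2 fold changes were small. Their median size without sign was 0.063, against 0.11 over all tested genes, and 7 were above 0 and 3 below.

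**Figure D1:**
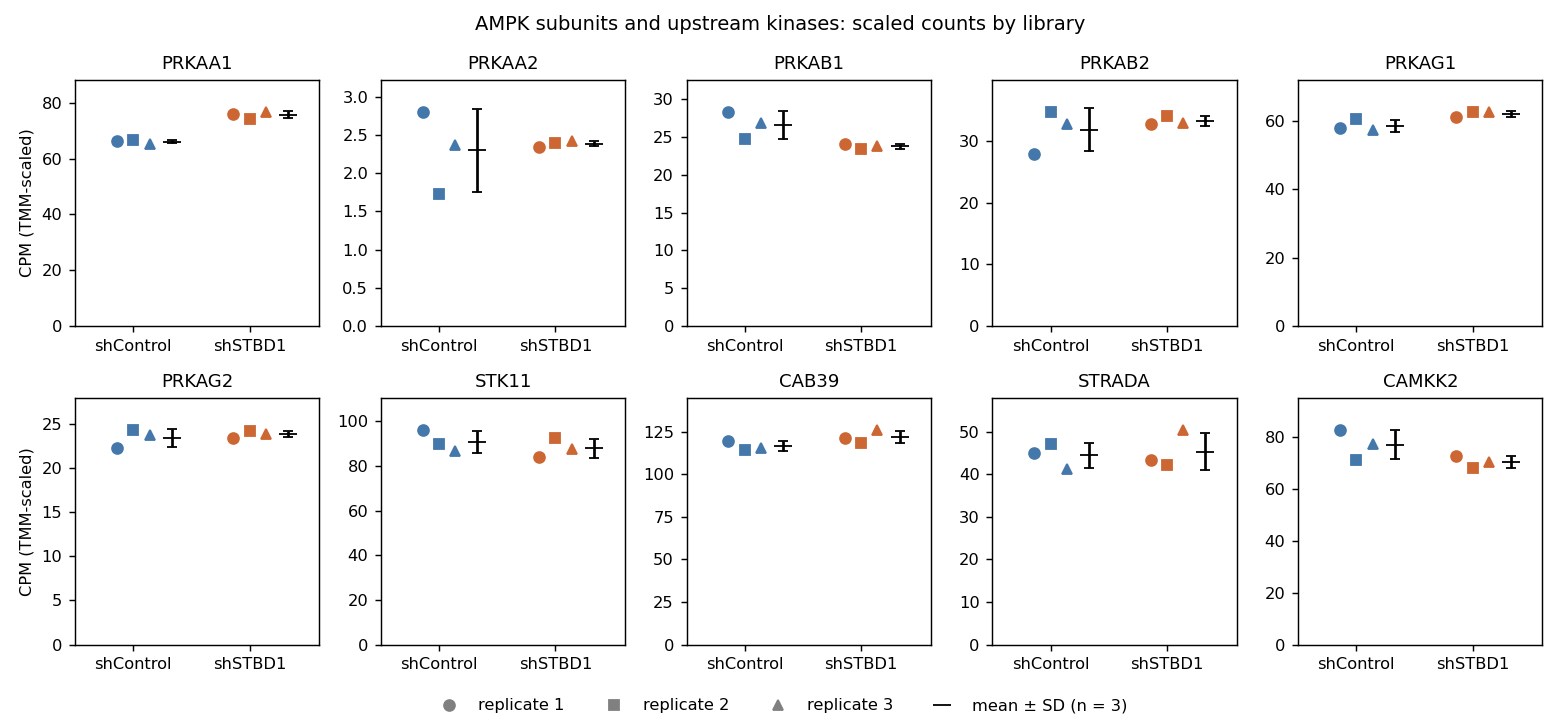
Scaled counts (CPM, vertical axis starting at 0 and set for each gene) of the 10 genes in 3 shControl (blue) and 3 shSTBD1 (orange) libraries, with the replicate number as the marker shape and the mean ± SD (n = 3) as black bars. The PRKAA1 libraries of shSTBD1 sit between 74.4 and 76.8 CPM, all above the shControl libraries at 65.5 to 66.5 CPM, while most of the other panels show overlapping groups.

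PRKAA1 encodes alpha1, the catalytic subunit found in most tissues, and lies on chromosome 5 of GRCh38 from 40759389 to 40798374 on the minus strand (ENSG00000132356). It was measured at 66.3, 66.5 and 65.5 CPM in shControl and at 76.0, 74.4 and 76.8 CPM in shSTBD1. All 3 shSTBD1 libraries lay above all 3 control libraries, and both groups were tight. The means were 66.1 ± 0.57 CPM (SD, n = 3) and 75.7 ± 1.25 CPM (SD, n = 3), a rise of 14.5% with a 95% interval of 8.32% to 21.0%. On the log2 scale this was 0.20 (SE 0.038, 95% interval 0.12 to 0.28, adjusted p = 0.0022, edgeR). Leaving out each library in turn kept the change between 0.19 and 0.21 with adjusted p from 0.0014 to 0.017 (edgeR). In bulk RNA, more cells that express a gene and more RNA per cell cannot be told apart. The change was modest among the genes called, since 39.3% of them had a smaller one, and the median size over called genes was 0.22.

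On a scale that accounts for transcript length the PRKAA1 groups did not separate. Its TPM values were 32.0, 33.4 and 32.1 in shControl and 30.7, 35.2 and 36.0 in shSTBD1. The first shSTBD1 library was the lowest of all 6 on this scale, although it lay in the high group by counts. RSEM, the program that gave the TPM values, put a 95% interval of 25.4 to 34.4 TPM on that library's value. This interval overlapped those of every other library, so the rank is uncertain. The means were 32.5 ± 0.77 TPM and 34.0 ± 2.81 TPM (SD, n = 3 each), and an exact two-sided permutation test gave p = 0.40, where the smallest p that 3 against 3 libraries allow is 0.1. With effective-length offsets in edgeR the log2 fold change was 0.073 (adjusted p = 0.61), and limma on log2(TPM + 1) gave 0.057 (adjusted p = 0.70). The call therefore held for reads per gene and was lost per transcript length. These settings called fewer genes of any kind, 3.29% and 1.88% of all tested genes.

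The difference between the scales lay in the effective length, the mean length in bases over which RSEM counts a gene's fragments, weighted by the transcripts it assigned them to. For PRKAA1 it was 2309, 2328 and 2338 bases in shControl and 2809, 2362 and 2397 bases in shSTBD1. All shSTBD1 libraries were longer than all control libraries, but most of the distance came from the first shSTBD1 library. The mean difference was 198 bases, from 2325 ± 14.6 to 2523 ± 248 (SD, n = 3 each), with an exact permutation p of 0.1, the smallest possible. PRKAA1 was the only member of the 10 whose effective lengths did not overlap between groups, which was so for 9.55% of all tested genes. Without the first shSTBD1 library, a setting added after seeing the data, the log2 fold change with effective-length offsets was 0.14 (adjusted p = 0.27, edgeR) and that from limma on log2(TPM + 1) was 0.13 (adjusted p = 0.36). Over all tested genes that library did not stand apart: 9.35% of its genes lay more than 15% from their median effective length, beside 8.60% to 10.1% in the others.

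**Figure D2:**
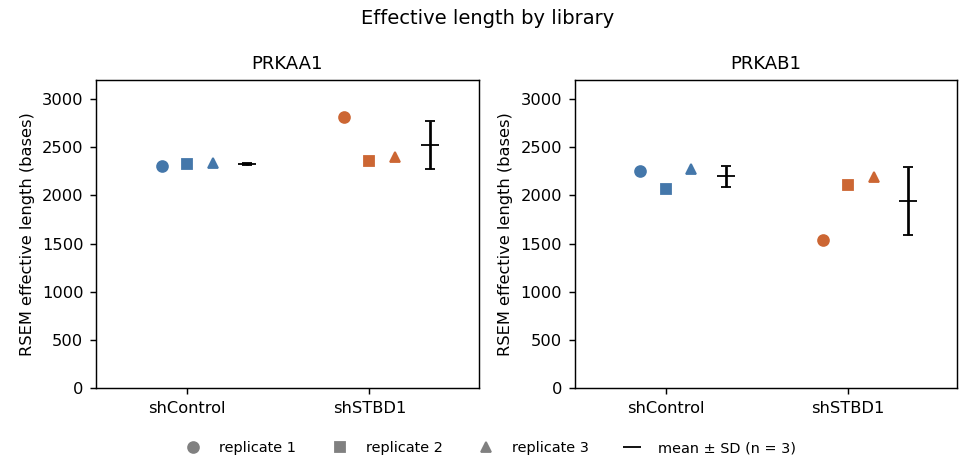
RSEM effective length in bases (vertical axis from 0) of PRKAA1 and PRKAB1 in 3 shControl (blue) and 3 shSTBD1 (orange) libraries, with the replicate number as the marker shape and mean ± SD (n = 3) as black bars. Replicate 1 of shSTBD1 stands at 2809 bases for PRKAA1, above the other libraries, and at 1532 bases for PRKAB1, below them.

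The authors' RSEM run listed 9 transcripts of PRKAA1, all of them held by the annotation used here (GENCODE release 44). Of these, 3 are protein-coding, with 5254, 1918 and 1134 bases, and 6 are short retained-intron forms. Where the shorter forms do not reach, the 3′ UTR of the longest one holds 1 match to GTGTCAC. This run of 7 bases occurs in the shControl hairpin as listed in the study's methods, which do not say which strand of the hairpin acts as the guide. PRKAA2 holds 3 such matches and the other 8 genes none. Other runs of 7 bases in the shControl hairpin were not searched. The sites are shown because both alpha genes hold this run and the hairpin of the control group holds it too. Each is given 5′ to 3′ on the transcript strand, from GRCh38, with the 7 bases in capitals.
PRKAA1, chr5:40762247-40762273, minus strand, 3′ UTR: ttttgagacaGTGTCACtttgtcaccc
PRKAA2, chr1:56709305-56709331, plus strand, 3′ UTR: agtttgcgttGTGTCACatcatatggc
PRKAA2, chr1:56710839-56710865, plus strand, 3′ UTR: taatgaatcaGTGTCACtgattcttac
PRKAA2, chr1:56711597-56711623, plus strand, 3′ UTR: tggttctcctGTGTCACcctgtggctt
Only the transcript strand was searched, in the 3′ UTR of the canonical form of every gene, and the run cannot overlap itself. The PRKAA1 match starts at base 518 of a 3′ UTR of 3392 bases. Of 13061 tested genes with a 3′ UTR, 1281 (9.81%) held the run, and among genes whose 3′ UTR was within 20% of the length of that of PRKAA1 the share was 17.2%. Among genes with a 3′ UTR within 20% of the 7625 bases of PRKAA2 it was 31.7%. In none of the stretches shown does the match to the hairpin extend past these 7 bases on either side. A match is a description of letters, not a site that either strand of the hairpin was shown to bind. Its part in the PRKAA1 difference was not tested.

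PRKAA2 encodes alpha2, the catalytic subunit best known from muscle and heart, and lies on chromosome 1 from 56645314 to 56715335 (plus strand, ENSG00000162409). It was the least abundant gene of the group, with 54, 36 and 42 reads in shControl and 43, 52 and 48 in shSTBD1. In CPM these were 2.81, 1.72 and 2.37 against 2.35, 2.39 and 2.42, so the shSTBD1 values fell inside the wider range of the control. The log2 fold change was 0.061 with a 95% interval from -0.39 to 0.51 (SE 0.21, adjusted p = 0.89, edgeR), an interval wide enough to hold the change seen in PRKAA1. It turned to -0.12 without shControl replicate 2. Of the summed alpha TPM, PRKAA1 made up 99.1% ± 0.20 in shControl and 99.1% ± 0.065 in shSTBD1 (SD, n = 3 each), with the 6 libraries between 98.9% and 99.4%.

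The beta subunits join alpha to gamma and carry the glycogen-binding module. PRKAB1, the gene of beta1, lies on chromosome 12 from 119667864 to 119681624 (plus strand, ENSG00000111725) and was measured at 28.3, 24.7 and 26.8 CPM in shControl and 24.1, 23.5 and 23.8 CPM in shSTBD1. Every shSTBD1 library was below every control library, though the second control library came close. The log2 fold change was -0.16 (SE 0.063, 95% interval -0.29 to -0.028), and with an adjusted p of 0.095 (edgeR) it was not called. Its direction did not hold per transcript length, where it was 0.030 with effective-length offsets (adjusted p = 0.93, edgeR) and 0.012 by limma on log2(TPM + 1) (adjusted p = 0.98). Without shControl replicate 2 it was called, at -0.21 (adjusted p = 0.038, edgeR). Leaving out any other library gave -0.11 to -0.17 with no call (adjusted p from 0.15 to 0.27, edgeR).

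The TPM of PRKAB1 depended on the same library that stood apart for PRKAA1. In shControl it was 14.1, 13.9 and 13.5 TPM and in shSTBD1 17.8, 12.5 and 12.2 TPM, so the first shSTBD1 library was the highest of all 6 and the other pair the lowest. RSEM's own 95% interval for that value ran from 11.8 to 39.8 TPM, and in the other 5 libraries its lower bounds were 11.2 to 13.0 TPM and its upper bounds 24.9 to 33.4 TPM. The effective length there was 1532 bases, against 2068 to 2274 bases in the other 5 libraries. For PRKAB1 the group difference in effective length was -255 bases and the groups overlapped (exact permutation p = 0.30).

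PRKAB2, the gene of beta2 on chromosome 1 from 147155106 to 147172550 (minus strand, ENSG00000131791), was measured at 27.9, 34.7 and 32.8 CPM in shControl and 32.7, 34.1 and 32.9 CPM in shSTBD1. The shSTBD1 values lay within the control range, whose low end came from 1 library. The log2 fold change was 0.063 (SE 0.069, 95% interval -0.082 to 0.21, adjusted p = 0.59, edgeR), and it turned to -0.025 without shControl replicate 1. It was also below 0 per transcript length, at -0.048 with effective-length offsets and -0.038 by limma on log2(TPM + 1). The share of PRKAB1 in the summed beta TPM was 60.1% ± 6.15 in shControl and 61.0% ± 4.97 in shSTBD1 (SD, n = 3 each), and the libraries ran from 55.5% to 67.1% with no separation by group. RSEM's wide intervals for the TPM of PRKAB1 limit this share too.

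The gamma subunits bind AMP, ADP and ATP through their CBS repeats. PRKAG1, the gene of gamma1, lies on chromosome 12 from 49002274 to 49018807 (minus strand, ENSG00000181929) and was the most abundant of the 10 per transcript length. It was measured at 57.9, 60.5 and 57.2 CPM in shControl and 61.1, 62.6 and 62.6 CPM in shSTBD1. The groups did not overlap, which was so for 3 of the 10 genes (PRKAA1, PRKAB1 and PRKAG1) and for 33.6% of all tested genes. The log2 fold change of 0.085 (SE 0.041, 95% interval -0.0031 to 0.17, adjusted p = 0.18, edgeR) did not pass the test. In TPM the PRKAG1 groups overlapped, as they did for all 10 genes, while 24.4% of all tested genes had groups that did not. An antisense gene, DDN-AS1, shares 514 bases with its exons (12.3%) and was listed at 3.59 to 5.09 CPM. The strand setting of the counting is not given in the sources used here, so reads of the shared stretch could not be told apart. On the same strand, ENSG00000288710, a protein-coding gene of the later annotation, shares 2061 of the 4166 exon bases of PRKAG1 (49.5%). It was not among the genes listed, so its reads could not be told from those of PRKAG1.

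PRKAG2 encodes gamma2, the gamma subunit known for heart disease caused by its mutations, and lies on chromosome 7 from 151556124 to 151877214 (minus strand, ENSG00000106617). Its values were 22.3, 24.3 and 23.7 CPM in shControl and 23.5, 24.2 and 23.9 CPM in shSTBD1, which overlapped almost fully. The difference on the log2 scale was 0.026 (SE 0.060, 95% interval -0.10 to 0.15, adjusted p = 0.82, edgeR), and it was -0.010 without shControl replicate 1. PRKAG1 made up 78.1% ± 1.76 of the summed TPM of PRKAG1 and PRKAG2 in shControl and 78.8% ± 0.41 in shSTBD1 (SD, n = 3 each). The gamma3 gene, PRKAG3, had 1 count in 1 shControl library and none in the other 5, and was not tested.

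The LKB1 complex showed no called gene. STK11, which encodes the kinase itself and lies on chromosome 19 from 1177558 to 1228431 (plus strand, ENSG00000118046), was measured at 96.0, 90.0 and 86.5 CPM in shControl and 84.1, 92.5 and 87.5 CPM in shSTBD1. The groups overlapped over most of their range. For STK11 the log2 fold change was -0.044 (SE 0.045, 95% interval -0.14 to 0.051, adjusted p = 0.56, edgeR). It ran from -0.0046 without shControl replicate 1 to -0.082 without shSTBD1 replicate 2. Exons of CBARP on the opposite strand share 145 bases with those of STK11 (1.65%).

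CAB39 encodes MO25, the scaffold that holds LKB1 in its active form, and lies on chromosome 2 from 230712842 to 230821075 (plus strand, ENSG00000135932). Its values were 119.8, 114.5 and 115.7 CPM in shControl and 121.2, 118.5 and 125.8 CPM in shSTBD1, with 1 control library inside the range of shSTBD1. CAB39 had a log2 fold change of 0.062 (SE 0.036, 95% interval -0.013 to 0.14, adjusted p = 0.26, edgeR). The ratio of CAB39 to STK11 TPM was 0.827 ± 0.049 in shControl and 0.892 ± 0.063 in shSTBD1 (SD, n = 3 each), and the groups overlapped.

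STRADA encodes the pseudokinase STRAD alpha, which binds and activates LKB1, and lies on chromosome 17 from 63682336 to 63741986 (minus strand, ENSG00000266173). It was measured at 44.9, 47.2 and 41.3 CPM in shControl and 43.4, 42.3 and 50.3 CPM in shSTBD1. The third shSTBD1 library was the highest and the other pair lay within the control range. On the log2 scale the difference was 0.025 (SE 0.065, 95% interval -0.11 to 0.16, adjusted p = 0.85, edgeR). It turned to -0.057 without shSTBD1 replicate 3 and to -0.024 without shControl replicate 3, and was -0.037 with effective-length offsets. RSEM's posterior SD of the STRADA count was 2.39 to 3.49 reads and that of PRKAG1 0.72 to 1.62 reads, while it was 0 for the other 8 genes. Reads shared with other listed genes thus made little difference to these counts. These SDs cannot speak to genes that were not listed. On the same strand as STRADA, the protein-coding gene ENSG00000125695 shares 1970 bases with its exons (18.1%) and was listed at 0 CPM. The ratio of STRADA to STK11 TPM was 0.657 ± 0.017 in shControl and 0.664 ± 0.069 in shSTBD1 (SD, n = 3 each).

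CAMKK2, the calcium-dependent activator of AMPK, lies on chromosome 12 from 121237675 to 121298308 (minus strand, ENSG00000110931). It was measured at 82.5, 71.2 and 77.3 CPM in shControl and 72.8, 68.1 and 70.2 CPM in shSTBD1. The second control library lay inside the range of shSTBD1 and the other control libraries lay above it. Its log2 fold change was -0.13 (SE 0.050, 95% interval -0.24 to -0.024, adjusted p = 0.088, edgeR) and was not called. Without shControl replicate 2 it was called at -0.19 (adjusted p = 0.016, edgeR), and without a filter on low counts at -0.13 (adjusted p = 0.041, edgeR). Without shControl replicate 1 it was -0.078 (adjusted p = 0.26, edgeR). By TPM it was 27.9, 23.6 and 23.4 in shControl and 23.7, 21.1 and 21.2 in shSTBD1, where the groups also overlapped.

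**Figure D3:**
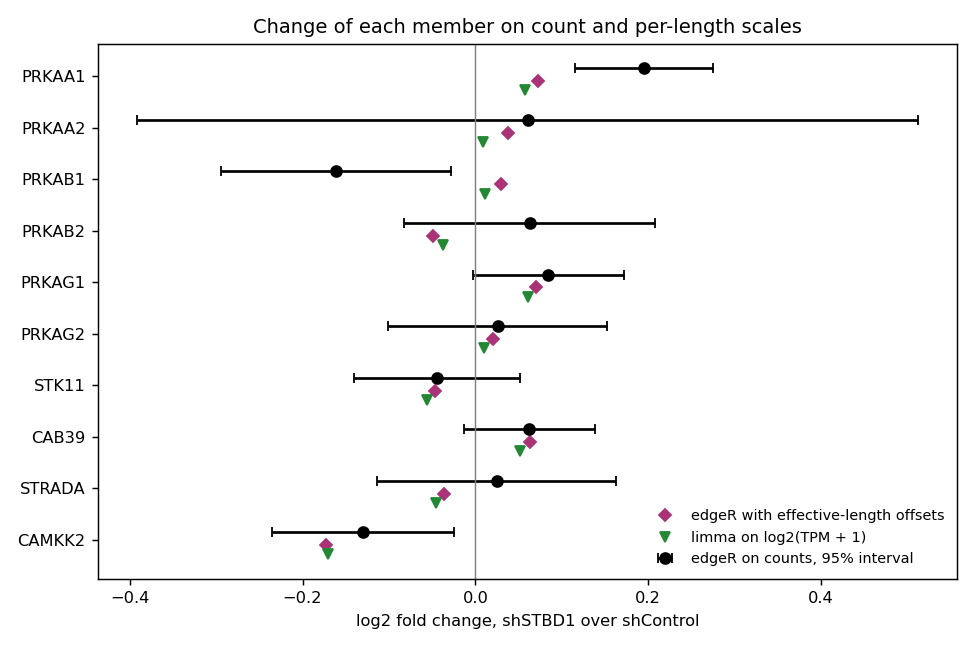
Log2 fold change of shSTBD1 over shControl (horizontal axis) of the 10 genes from edgeR on counts with its 95% interval (black), from edgeR with effective-length offsets (purple) and from limma on log2(TPM + 1) (green). The interval of PRKAA1, 0.12 to 0.28, does not reach 0, but its per-length values are 0.073 and 0.057, and PRKAB1 moves from -0.16 on counts to 0.030 and 0.012.

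Levels of different genes were compared per transcript length only. Over the 6 libraries the mean level was 50.7 TPM for PRKAG1 (range 47.6 to 53.5), 47.3 TPM for STK11 (44.9 to 49.5) and 40.5 TPM for CAB39. Then came PRKAA1 at 33.2 TPM (30.7 to 36.0), STRADA at 31.2 TPM (28.4 to 32.8) and CAMKK2 at 23.5 TPM. The lower end held PRKAB1 at 14.0 TPM (12.2 to 17.8), PRKAG2 at 13.9 TPM, PRKAB2 at 9.11 TPM (6.89 to 11.2) and PRKAA2 at 0.29 TPM (0.22 to 0.34). Neighbours in this order whose ranges overlapped were PRKAG1 and STK11, PRKAA1 and STRADA, and PRKAB1 and PRKAG2. The ranges of the remaining neighbours did not overlap, and the widest step was between PRKAB2 and PRKAA2, at 31.4-fold. These are ranges of the TPM values alone, and RSEM's 95% intervals for PRKAB1 reached well above its range. Their upper bounds also lay above the range for STRADA (34.9 to 39.9 TPM) and PRKAG2 (17.5 to 19.9 TPM). In shSTBD1 replicate 1 the intervals of STK11 (38.9 to 45.3 TPM) and CAB39 (36.8 to 41.0 TPM) overlapped. The order of close neighbours is therefore uncertain. PRKAG1 stood at the 83.5th percentile of tested genes by TPM and PRKAA2 at the 2.08th.

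**Figure D4:**
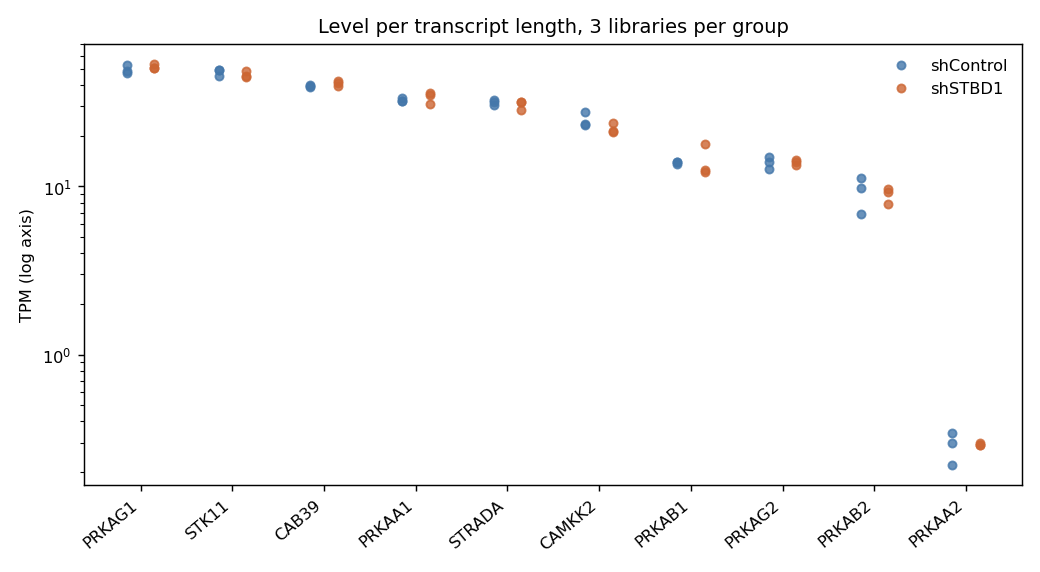
Level per transcript length (TPM, log axis) of the 10 genes, ordered by their mean, with 3 shControl (blue) and 3 shSTBD1 (orange) libraries as points. Within every gene the groups overlap, and PRKAA2, at 0.22 to 0.34 TPM, lies far below the other 9 genes.

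Summed over the paralogues of each subunit, the gamma genes were the most abundant. The gamma sum was 63.5 ± 2.95 TPM in shControl and 65.7 ± 1.98 TPM in shSTBD1, the alpha sum 32.8 ± 0.71 and 34.2 ± 2.81 TPM, and the beta sum 23.1 ± 2.11 and 23.1 ± 3.53 TPM (SD, n = 3 each). For each of these sums the groups overlapped. In each library the beta genes had the lowest sum of TPM values and the gamma genes the highest. By these values the RNAs of a complex that holds 1 of each subunit were not equal in level. RSEM's 95% intervals for PRKAB1 had upper bounds of 24.9 to 39.8 TPM, so the place of beta under alpha is uncertain. The ratio of gamma to beta was 2.75 ± 0.15 in shControl and 2.88 ± 0.35 in shSTBD1 (SD, n = 3 each).

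The genes whose CPM followed PRKAA1 most closely over the 6 libraries were SEMA7A (Pearson r = 0.999) and PSMA4, a proteasome subunit (r = 0.999). This is a description of 6 libraries in 2 groups. A high r needs little beyond separate and tight groups, and 893 tested genes had an r over 0.9.

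Around the core genes, 3 lists of AMPK genes were read in the same fit. Of 22 other AMPK regulators, among them upstream kinases, phosphatases, adenylate kinases and sestrins, 20 were tested and 2 were called, both higher (10.0%, beside 15.8% of all tested genes). Their median log2 fold change was 0.0034, against 0.0023 over all tested genes. ADK, the adenosine kinase that makes AMP from adenosine, was 47.9 ± 1.02 CPM in shControl and 53.5 ± 0.93 CPM in shSTBD1 (SD, n = 3 each), a log2 fold change of 0.16 (SE 0.043, adjusted p = 0.019, edgeR). SESN1, a sestrin linked to AMPK activation under p53, was 17.2 ± 1.40 and 20.1 ± 0.89 CPM (SD, n = 3 each), with a log2 fold change of 0.23 (SE 0.073, adjusted p = 0.045, edgeR). Neither was called by DESeq2 or with effective-length offsets, where the log2 fold changes were 0.18 for ADK and 0.21 for SESN1. Both lost the call without shControl replicate 2, shSTBD1 replicate 1 or shSTBD1 replicate 3, and SESN1 also without shControl replicate 1 or shSTBD1 replicate 2. At an unadjusted p under 0.05, DESeq2 had 2 of the list and edgeR with effective-length offsets 3.

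The AMPK-related kinases share the alpha subunit's kinase family, and most are also activated by LKB1. All 12 were tested and 1 was called, NUAK1, which was lower (8.33%, beside 15.8% of all tested genes called and 7.54% called lower, median log2 fold change -0.012). NUAK1 was 21.3 ± 1.43 CPM in shControl and 18.0 ± 0.59 CPM in shSTBD1 (SD, n = 3 each), with a log2 fold change of -0.24 (SE 0.070, adjusted p = 0.029, edgeR). The groups did not overlap, but the call was kept in only 1 of the 6 fits that left out a library, the one without shControl replicate 2. DESeq2 did not call it either, with 1 gene of the list at an unadjusted p under 0.05, and neither did the fit with effective-length offsets, with 2.

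Of 30 genes for proteins listed as AMPK substrates, 27 were tested and 6 were called (22.2%, beside 15.8% of all tested genes), 3 higher and 3 lower, with a median log2 fold change of 0.024. HDAC4, a class IIa histone deacetylase held in the cytoplasm when kinases of this family phosphorylate it, was measured at 36.9, 34.2 and 35.8 CPM in shControl and 24.6, 21.8 and 21.6 CPM in shSTBD1. The groups were far apart, and the log2 fold change of -0.65 (SE 0.062, adjusted p = 2.2e-06, edgeR) was the largest in the 3 lists and about as large as that of STBD1. With effective-length offsets it was -0.33 (adjusted p = 0.48, edgeR). Its relative HDAC5 was higher, from 43.3 to 48.9 CPM (log2 fold change 0.17, SE 0.047, adjusted p = 0.018, edgeR).

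ULK1, the kinase that starts autophagy and that AMPK activates, rose from 35.4 ± 1.31 CPM to 41.3 ± 1.18 CPM (SD, n = 3 each), a log2 fold change of 0.22 (SE 0.051, adjusted p = 0.0066, edgeR). NOS3, the endothelial nitric oxide synthase, had a log2 fold change of 0.22 (SE 0.064, adjusted p = 0.028, edgeR). EP300, a histone acetyltransferase, fell from 115 ± 3.53 to 100.5 ± 5.64 CPM (SD, n = 3 each), with a log2 fold change of -0.20 (SE 0.042, adjusted p = 0.0038, edgeR). CRTC1, a coactivator of CREB, had a log2 fold change of -0.22 (SE 0.072, adjusted p = 0.044, edgeR). HDAC4, ULK1 and EP300 were called in each of the 6 fits that left out a library and by DESeq2. HDAC5, NOS3 and CRTC1 each lost the call in some of those fits and were not called by DESeq2. None of the 27 was called with effective-length offsets in edgeR, where 4 had an unadjusted p under 0.05, or by limma on log2(TPM + 1), where 3 had. With effective-length offsets the log2 fold changes were 0.24 for ULK1, 0.28 for NOS3, 0.12 for HDAC5, -0.31 for EP300 and -0.21 for CRTC1.

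ACACA and RPTOR, named after their values were seen, did not pass the test. ACACA, the acetyl-CoA carboxylase that AMPK inhibits, was 300.1 ± 7.79 CPM in shControl and 307 ± 5.83 CPM in shSTBD1 (SD, n = 3 each, log2 fold change 0.032, adjusted p = 0.54, edgeR). RPTOR, the mTORC1 subunit phosphorylated by AMPK, had a log2 fold change of -0.13 (adjusted p = 0.064, edgeR). PPARGC1A and TXNIP were listed at 0 in every library and GYS2 lay under the filter, so these 3 were not tested. Whether the zeros come from the cells or from the counting cannot be told from these files.

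**Figure D5:**
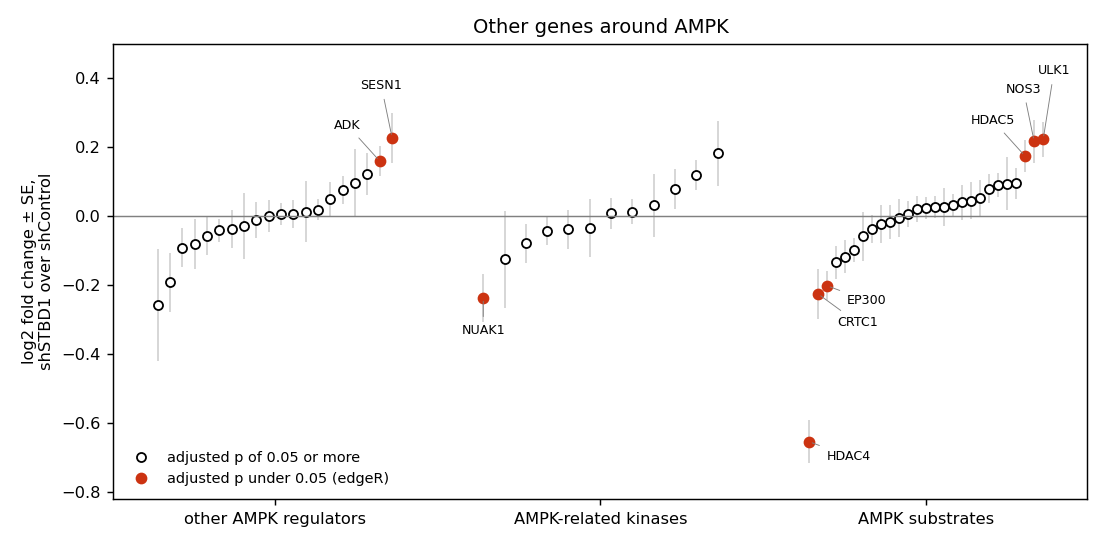
Log2 fold change ± SE of shSTBD1 over shControl (vertical axis, edgeR on 3 libraries per group) of the tested genes in the lists of other AMPK regulators (20), AMPK-related kinases (12) and AMPK substrates (27), ordered within each list, with called genes in red and named. Most genes lie near 0, and HDAC4 at -0.65 lies far below the rest.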

How the data were processed

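RNA from 6 HCT116 libraries was compared. Per the study's methods, libraries were made with a NEBNext Ultra kit and sequenced in pairs. The authors cleaned the reads of adapters and poor base calls and aligned the rest to Hg38 (Ensembl release 93) with STAR 2.7.1a. The deposited gene tables from RSEM 1.3.1 hold the expected count and the TPM of each gene, with effective length, posterior SD and interval bounds, all made by the authors per library. The expected counts were not whole for 19.9% to 20.4% of genes above 0, since RSEM splits reads that fit several genes, and were rounded. No symbols are given, so identifiers were matched to GENCODE release 44 on GRCh38, the same build with a later annotation, and 57754 of 58395 matched.

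Counts were tested with edgeR 4.0.16 (R 4.3.3) after its filter on low counts, with TMM factors of 0.979 to 1.01, the quasi-likelihood F-test and Benjamini-Hochberg adjustment over all 15566 tested genes. A call is an adjusted p under 0.05. CPM are counts scaled to the TMM-adjusted library size. Single TPM and effective-length values were compared by exact two-sided permutation tests. Alternatives used DESeq2 1.42.0, other scaling and filters, unrounded counts, effective-length offsets, a replicate block, limma 3.58.1 on log2(TPM + 1) and log2(TPM + 0.1), and fits without each library. The main edgeR fit, the one with the block and DESeq2 were tested on simulated data, with changes larger than that of PRKAA1. The other alternatives, among them effective-length offsets and limma, were not. Depth, from 17689097 to 21668274 counts, limits mainly PRKAA2. No intervals on shares are given, and intervals on fold changes are 95%.

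The 10 members and the 3 lists were chosen with earlier results of these data known. Named genes were the members, STBD1, every called gene of a list and the 2 genes most like a called member by Pearson r of log2 CPM (prior count 2, mean of at least 1 CPM), apart from those said in the text to be named after their values were seen.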

Additional observations from a re-analysis of the deposited data

How the results depend on the processing

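PRKAA1 kept its direction in all 16 alternatives fixed beforehand (0.057 to 0.21 on the log2 scale, adjusted p from 0.00038 to 0.70) and its call in 13. PRKAG1, STK11 and CAB39 kept direction and lack of a call in all 16. The differences in the 5 paralogue shares and complex ratios moved by less than the larger of the SDs of the 2 groups. For the shares of PRKAA1 and PRKAG1 and the ratio of STRADA to STK11 they moved by more than the smaller SD. With a library left out 4 of them took either sign. They ran from -0.070 to 0.13 percentage points for PRKAA1, -1.57 to 4.36 for PRKAB1 and -0.38 to 1.24 for PRKAG1. The ratio of STRADA to STK11 ran from -0.015 to 0.047. Members called numbered 2 without a filter on low counts, beside 2779 of the 28225 genes tested there. They numbered 0 with effective-length offsets and 0 in both limma fits, beside 512, 292 and 290 of 15566 genes. With a library left out they numbered 1 to 3, beside 1409 to 2577 of 15804 to 15951 genes. Those called higher numbered 0 with effective-length offsets and in both limma fits. Those called lower numbered 1 without a filter and 0 to 2 with a library left out. With 2 settings added after seeing the data, effective-length offsets and limma on log2(TPM + 1) each without shSTBD1 replicate 1, members called, and called higher, were 0 and 0. Why the per-length fits called fewer genes was not tested.

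Calls over all tested genes were 512 with effective-length offsets, 292 and 290 in limma on log2(TPM + 1) and log2(TPM + 0.1), 1409 to 2577 with a library left out, and 212 and 18 in the added settings. Other AMPK regulators called were 0 by DESeq2, 1 with library size alone, 0 with effective-length offsets, in limma and in the added settings, and 0 to 2 with a library left out. AMPK-related kinases called were 0 by DESeq2, with effective-length offsets, in limma and in the added settings, and 0 to 1 with a library left out. AMPK substrates called were 3 by DESeq2, 0 with effective-length offsets and in limma, 1 and 0 in the added settings, and 3 to 6 with a library left out.

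Log2 fold changes of 5 members that were not called turned sign in some settings. With a library left out they ran from -0.12 to 0.23 for PRKAA2, -0.025 to 0.13 for PRKAB2, -0.010 to 0.054 for PRKAG2 and -0.057 to 0.076 for STRADA. PRKAB1 was 0.030 with effective-length offsets and 0.012 and 0.011 by limma. PRKAB2 was -0.048 with effective-length offsets, -0.038 and -0.039 by limma, and -0.068 and -0.062 in the added settings. PRKAG2 was -0.015 in the added limma setting. STRADA was -0.037 with effective-length offsets, -0.045 and -0.047 by limma, and -0.055 and -0.070 in the added settings. The cause was not tested. STBD1 kept its direction throughout, with adjusted p of 0.065 and 0.067 by limma on TPM and 0.099 in the added limma setting.

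Replicate numbers are shared between the groups, but the labels do not say that they pair the samples. Same-numbered libraries deviated together with r = 0.071, 0.068 and -0.0084, and differently numbered ones with r from -0.074 to 0.010. These small values do not decide whether the numbers pair the samples, and the main fit had no block. With the replicate number as a block, 2 members were called, 1 higher and 1 lower, the latter CAMKK2 at -0.13 (adjusted p = 0.039, edgeR), and 2579 genes in all.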
